A study of Arabidopsis thaliana with 12 samples.

Results

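The cytosolic 40S ribosomal protein genes encode the proteins of the small ribosomal subunit, which binds messenger RNA and decodes it. They were chosen as 60 listed locus identifiers for RPSa and RPS2 to RPS28, all of them present in the table of all reads, which lists 22337 gene identifiers. Grouped by the protein they encode, after the usual Arabidopsis assignment, they stand for 27 proteins, of which 25 have 2 or more of the listed genes. The identifiers alone, and no measured value, decided membership.

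Plants keep several expressed genes for nearly every ribosomal protein, and the copies of a protein are almost alike in sequence while their promoters and leaders can differ. Most messenger RNAs begin with a methylated guanosine cap, which initiation factors hold while the small subunit is loaded. A minority of transcripts begin instead with NAD, the redox cofactor, placed where the cap would be. NAD tagSeq finds such molecules: the enzyme adenosine diphosphate ribosylcyclase (ADPRC) exchanges part of the NAD for a chemical handle, a synthetic tag RNA is joined to the handle, and the molecule is read from end to end on a Nanopore instrument by direct RNA sequencing.

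All libraries came from whole 12-day-old seedlings of the Col-0 wild type, grown without a special treatment. Enriched poly(A) RNA, in which molecules carrying the tag were selected, makes up 3 libraries with ADPRC and 3 without ADPRC. Unenriched poly(A) RNA makes up another 3 with ADPRC and 1 without, and enriched total RNA 1 of each kind. Reactions without ADPRC measure the background of the tagging. Whether replicates are separate cultures is not in the labels, so a p-value may cover technical spread alone, and in whole seedlings fewer cells of a type and less RNA per cell cannot be told apart.

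Depth differed between groups. All reads ran from 1175516 to 1233999 per enriched library with ADPRC, from 390009 to 948433 without it and from 378322 to 619122 per unenriched library with ADPRC, with 434742 in the unenriched control and only 6479 and 1237 in total RNA with and without ADPRC. Levels are reads scaled to the library's total number of reads, which the files call TPM. They are not divided by transcript length, and 1 read was worth 0.810 to 0.851 TPM in enriched libraries with ADPRC and 1.62 to 2.64 TPM in unenriched ones. The tagged share is the number of tagged reads of a gene as a percentage of all its reads. Over whole enriched libraries with ADPRC it was 23.9%, 20.9% and 14.1% in replicates 1, 2 and 3, so that a gene's share moved with its library. Intervals given for shares are 95% Wilson intervals and cover counting error only.

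After enrichment, the tag was found on a large part of the 40S reads with ADPRC and on few of them without it. Summed over the 60 genes, 32.4%, 25.6% and 18.9% of reads were tagged in the enriched libraries with ADPRC, against 0.216%, 0.240% and 0.298% in those without it. The mean was 25.7% ± 6.75 with the enzyme, against 0.252% ± 0.0423 in its absence (SD, n = 3 each). In the 3 libraries with ADPRC the sum came from 13534 tagged reads, in the 3 without it from 70. Unenriched libraries with ADPRC had 0.790% ± 0.0488 tagged (SD, n = 3), from 196 reads, and the unenriched control had 0 of 5892 reads of these genes tagged, which allows a share of up to 0.0652%. The share of the 40S genes lay above that of the whole library in each of the 3 enriched and 3 unenriched libraries with ADPRC, and also in each of the 3 enriched libraries without ADPRC, where whole libraries had 0.132%, 0.224% and 0.220%. Counting error could cover some of this. The 40S interval included the library's share in unenriched replicate 2 with ADPRC (0.648% to 0.991%, library 0.743%). It also did so in enriched replicates 1 and 2 without ADPRC (0.124% to 0.378% and 0.148% to 0.389%).

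Tagging reached nearly every gene of the set, which was not particular to it. Of all 1391 genes at a mean of 100 TPM or more of all reads in enriched RNA with ADPRC, only 4 had no tagged read. Among the 48 members at that level it was 0. In enriched RNA with ADPRC, tagged reads were found for 58 of the 60 genes, for 57 of them in every library, against 38 in the enriched libraries without ADPRC, of which only the RPS9 gene AT5G15200 and the RPS18 gene AT4G09800 were tagged in all 3. In unenriched RNA with ADPRC 46 genes were tagged at least once, 15 of them in every library, and none was in the control. The RPS23 gene AT3G09680 had no tagged read after enrichment. It was nearly silent, at 0, 1.64 and 0 TPM of all reads, so its tagging was not measurable at this depth. Its paralogue AT5G02960 supplied nearly all transcripts of the protein, with 501 ± 72.2 TPM of all reads (SD, n = 3).

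The RPS3a gene AT3G04840 carried the most tagged RNA of the set. RPS3a is a protein of the platform, the side of the subunit where messenger RNA leaves. Its tagged level was 289, 333 and 299 TPM in enriched libraries with ADPRC, and it had no tagged read in the 3 libraries without ADPRC. Computed against a floor of 3 reads over those control libraries, the level was at least 190-fold higher with ADPRC. Unenriched RNA with ADPRC held 5.29, 4.85 and 3.57 TPM of tagged AT3G04840, below every enriched library.

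The RPS16 gene AT5G18380 encodes a protein of the head whose tail reaches the peptidyl transfer RNA. It had 404, 249.9 and 166 tagged TPM in enriched libraries with ADPRC, against 2.56, 0 and 3.16 TPM without it. Unenriched RNA with ADPRC gave 10.6, 19.4 and 8.93 TPM. AT5G18380 was the member with the most tagged reads before enrichment, 21 reads. The RPS28 gene AT5G03850, for a small protein beside the messenger RNA exit, had 379, 191 and 170.2 tagged TPM with ADPRC, against 0, 3.84 and 1.05 TPM without it in enriched libraries. For both genes every library with ADPRC lay above every one without it.

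The RPS7 gene AT1G48830 followed with 263, 173 and 139 tagged TPM with ADPRC, against 0, 0 and 1.05 TPM without it. It showed the highest ratio among members with a control read, 354-fold over pooled reads, but that rests on 1 control read and its counting interval ran from 63.3 to 13999-fold. The RPS21 gene AT3G53890, whose protein contacts RPSa in yeast, had 239, 161 and 98.9 TPM with ADPRC and 2.56, 0 and 1.05 TPM without it. These 5 genes held 31.6% of all tagged 40S reads after enrichment, while they had 10.3% of all 40S reads, tagged or not, in unenriched RNA with ADPRC. The 5 were picked by their tagged level after enrichment, so the choice itself made the first percentage large. Replicate 1 had the highest tagged level for 4 of these genes and the lowest for AT3G04840.

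**Figure D1:**
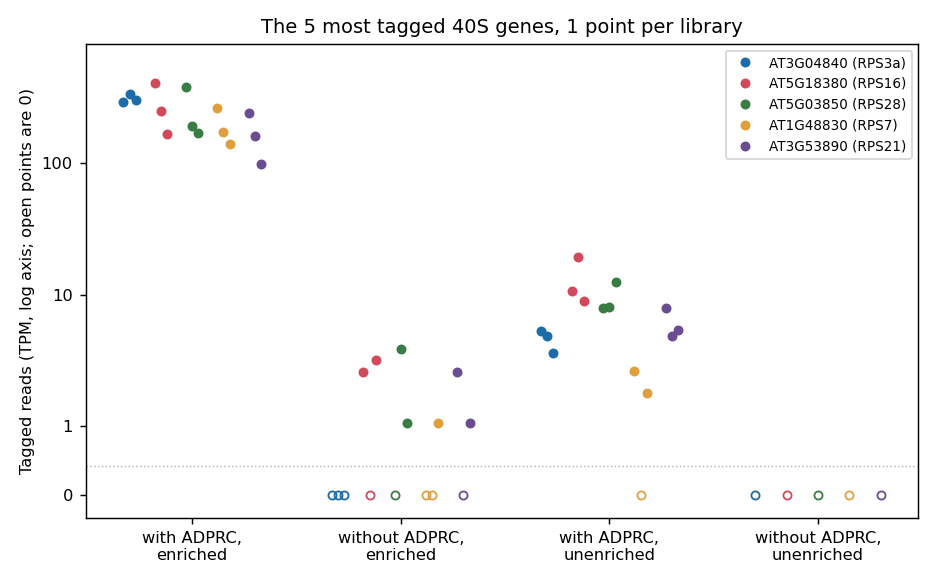
Tagged level (TPM, log axis, with zeros drawn as open points below the dotted line) of the 5 most tagged 40S genes, 1 point per library, for poly(A) RNA with and without ADPRC, enriched and unenriched. All 15 points of enriched RNA with ADPRC lie at 98.9 TPM or above, and no point of the other groups exceeds 19.4 TPM.

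Tested across all genes, 57 of 57 members passing the filter had more tagged reads with than without ADPRC after enrichment (limma, adjusted p under 0.05), and 96.7% of the 7634 genes tested were called in that direction too. A gene had to be above 0 in 3 libraries to be tested, which the libraries with ADPRC alone could supply, so this count says little about the members. The median difference was 4.93 on the log2(TPM + 0.953) scale over the members and 2.32 over all genes tested. Among the 1215 genes at a mean of 10 TPM or more of tagged reads, it was 5.16 over 47 members and 5.08 over all genes, so the medians were close there. AT3G04840 differed by 8.34 ± 0.19 (SE, limma adjusted p = 1.66e-05), AT1G48830 by 7.25 ± 0.41 (limma adjusted p = 2.86e-05) and the RPS10 gene AT5G41520 by 3.01 ± 0.63 (limma adjusted p = 0.00416). Enriched against unenriched RNA with ADPRC gave the same kind of count, 57 of 57 members higher where 95.7% of 7623 genes were called, with a median of 4.21 over members and 2.01 over all genes. Among the 1237 genes at a mean of 10 TPM or more of tagged reads, the medians were 4.30 over 45 members and 4.23 over all genes. Libraries were also scaled to the genes read in every library. AT1G48830 and AT3G04840 were then the 2 members still called higher in either comparison. On that scale 34 members were called lower with than without ADPRC and 9 lower in enriched than in unenriched RNA. Over all genes tested 93.2% were called lower with than without ADPRC and 79.5% lower with enrichment. Most genes tested had lower levels than the members, and this scaling was not repeated for genes at the members' level. The lower percentage of members is therefore not read as a trait of the set. Called higher were 0.707% and 0.774% of all genes.

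Among the 48 members at 100 TPM or more in all reads, the tagged share after enrichment with ADPRC spread from 6.64% to 49.5%, with a median of 24.8% and quartiles of 17.1% and 29.3%. All 1391 genes at that level had a median of 18.4% and quartiles of 11.8% and 25.2%. To take out the differences between libraries, each gene's share was set against that of its own library on a log2 scale and tested across all genes. By limma, 27 members were above their library's share at an adjusted p under 0.05, where 30.9% of all genes were, and 10 were below it, where 36.1% were. The median relative share was 0.32 over the members and -0.09 over all genes (log2). In plain shares, 29 members lay above the library in all 3 libraries, against 34.1% of all genes, and 12 below, against 43.5%.

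**Figure D2:**
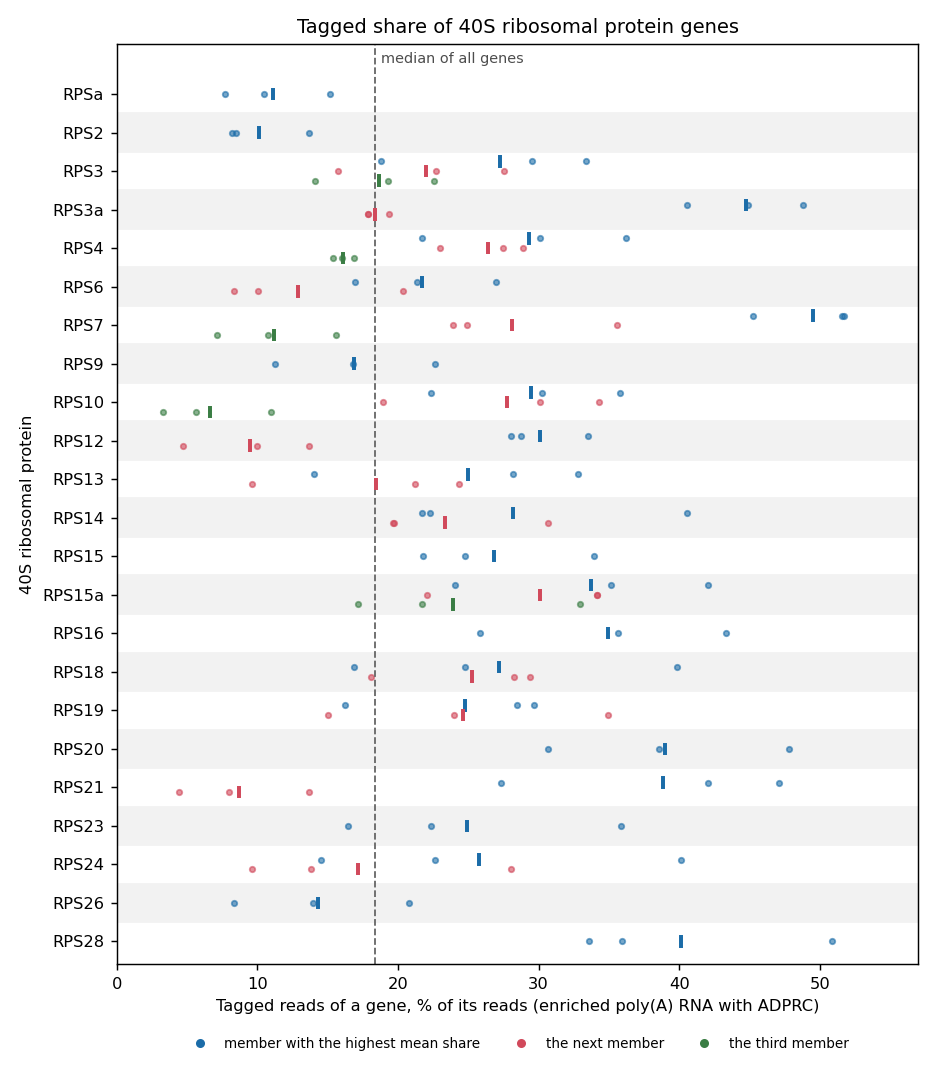
Tagged share of 40S genes at 100 TPM or more, for the proteins described here, in enriched poly(A) RNA with ADPRC, by protein; points are the 3 libraries, bars their mean, colours the paralogues in order of mean share, and the dashed line the median of all genes (18.4%). By mean share, RPS3a, RPS4, RPS6, RPS7, RPS10, RPS12, RPS21 and RPS24 hold members on both sides of the line, from 49.5% down to 6.64%. AT4G34670 of RPS3a, at 18.35%, lies just under the line. Both RPS18 genes and both RPS19 genes lie between 24.6% and 27.2%.

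The proteins of the head of the subunit, which swivels as messenger RNA moves, and those of its body and platform had members at both high and low shares, and no list of either was tested. The RPS28 gene AT5G03850 had shares of 50.9%, 35.9% and 33.6%, and RPS20 AT5G62300 had 47.8%, 38.6% and 30.7%. Every one of these values exceeded the share of its own library. Their relative shares were 1.04 ± 0.12 for AT5G03850 (log2, SE, limma adjusted p = 5.26e-06) and 1.01 ± 0.12 for AT5G62300 (limma adjusted p = 3.93e-06). RPS16 AT5G18380 had 43.3%, 35.7% and 25.9%, a relative share of 0.84 ± 0.11 (limma adjusted p = 1.40e-05).

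RPS3, at the messenger RNA entry, had 3 genes between 18.6% ± 4.28 and 27.2% ± 7.53, and of these AT3G53870, the highest, was called above the library. The RPS18 genes AT4G09800 and AT1G22780, AT1G22780 known as POINTED FIRST LEAF for the leaf shape of its mutant, had 27.2% ± 11.7 and 25.2% ± 6.24. RPS19 genes AT5G61170 and AT3G02080 had 24.8% ± 7.41 and 24.6% ± 9.95, and the RPS15 gene AT1G04270 had 26.8% ± 6.36 (SD, n = 3 each). These 5 genes for RPS18, RPS19 and RPS15 were called above the library's share, by 0.29 to 0.47 on the log2 scale.

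The highest share of the set belonged to RPS7 AT1G48830, with 51.6%, 51.7% and 45.2%, a relative share of 1.37 ± 0.14 (log2, SE, limma adjusted p = 1.48e-06). RPS3a AT3G04840 came next with 44.9%, 48.8% and 40.5%, a relative share of 1.22 ± 0.13 (limma adjusted p = 2.78e-06). Among all 1391 genes they ranked 9 and 25 from the top. Both held a share above 40% in replicate 3, where the whole library had 14.1%. The 5 members at the top of the order, AT1G48830, AT3G04840, AT5G03850, AT5G62300 and AT3G53890, had ranges over their 3 libraries that all overlapped one another, though within each library AT1G48830 had the highest share of the 5.

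The lowest share belonged to RPS10 AT5G41520, known as RPS10B, with 11.0%, 3.31% and 5.64%. RPS10 sits on the beak of the head, near where messenger RNA enters. Its relative share was -1.62 ± 0.33 (log2, SE, limma adjusted p = 0.000525). RPS21 AT5G27700 had 13.7%, 8.00% and 4.40%, a relative share of -1.23 ± 0.26 (limma adjusted p = 0.000693). RPS12 AT1G15930, another beak protein, had 13.7%, 10.0% and 4.74%, and RPS2 AT2G41840 had 13.6%, 8.23% and 8.45%. RPSa AT1G72370 had 15.2%, 10.5% and 7.66%. None of these 15 values reached the share of its library.

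RPS26 AT3G56340, whose protein touches the messenger RNA at the exit, had 14.3% ± 6.23 (SD, n = 3) and was called below the library, with a relative share of -0.48 (log2). Neither the RPS9 gene AT5G15200, at 16.9% ± 5.69, nor the RPS24 gene AT5G28060, at 17.1% ± 9.65, was called in either direction. RPS23 AT5G02960, whose protein lies at the decoding site, had 24.9% ± 9.96, and its relative share of 0.31 ± 0.12 passed the test (limma adjusted p = 0.0384).

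The 12 members under 100 TPM of all reads were left out of the test of shares. Among them RPS15 AT5G09510 had 11.2% ± 7.17, RPS16 AT2G09990 had 21.4% ± 9.07 and RPS20 AT3G45030 had 23.6% ± 4.73 (SD, n = 3 each). RPS2 AT1G58380, with 26.5% ± 10.5, is one of several nearly identical RPS2 copies, among which reads cannot be assigned with certainty. The same holds in part for any pair of close paralogues, and 14 members overlap another listed gene, which had at most 39.98 TPM in any poly(A) library.

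Paralogues of 1 protein were compared where 2 or more members reached 100 TPM, which left 16 proteins, 37 members and 26 pairs. In 10 pairs (38.5%) the shares of the 3 enriched libraries with ADPRC did not overlap, against 52.1% of all pairs of the 1391 genes. In 23 pairs the same gene was higher in all 3 libraries. With 3 libraries a paired exact permutation test cannot give a two-sided p under 0.25, so no p is given for single pairs. In 8 pairs of 5 proteins the Wilson intervals were apart in every library. For the counts of 23 and 8 pairs no share of all gene pairs is at hand, so they have no background to be read against.

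In RPS21 the 2 genes were read at similar levels and differed widely in tagging. AT3G53890 had 47.1%, 42.1% and 27.4% tagged, and AT5G27700 had 13.7%, 8.00% and 4.40%. The ratio of the mean shares was 4.46. All reads in the same libraries were 417 ± 79.3 TPM for AT3G53890 and 307 ± 78.2 TPM for AT5G27700 (SD, n = 3 each). In unenriched RNA with ADPRC, 9 of 396 reads of AT3G53890 (2.27%, interval 1.20% to 4.26%) and 0 of 457 reads of AT5G27700 (up to 0.834%) were tagged, which makes RPS21 the one protein of the 6 below whose unenriched intervals were apart.

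RPS10 has 3 genes, of which 1 stood apart. AT5G52650 had 35.8%, 30.3% and 22.3% tagged, AT4G25740 had 34.3%, 30.1% and 18.9%, and RPS10B AT5G41520 had 11.0%, 3.31% and 5.64%. The shares of AT5G52650 and AT4G25740 overlapped and both lay above every value of AT5G41520. The ratio of mean shares was 4.44 between AT5G52650 and AT5G41520. Unenriched, 3 of 323 and 1 of 340 reads of AT5G52650 and AT4G25740 were tagged, and 0 of 347 reads of AT5G41520, with intervals that overlap.

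The 3 RPS7 genes formed 3 separate steps. AT1G48830 had 51.6%, 51.7% and 45.2%, AT5G16130 had 35.6%, 24.9% and 23.9%, and AT3G02560 had 15.6%, 10.7% and 7.14%. No value of a gene fell into the range of another. The ratio of the mean shares of AT1G48830 and AT3G02560 was 4.43. In unenriched RNA with ADPRC the same genes had 2 of 257, 1 of 243 and 0 of 303 reads tagged, the same order but far too few reads to separate them.

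RPS12 AT2G32060 had 33.5%, 28.7% and 28.0% tagged, against 13.7%, 10.0% and 4.74% for AT1G15930, a ratio of mean shares of 3.18. In unenriched RNA with ADPRC, AT2G32060 had 172 ± 17.6 TPM of all reads and the less tagged AT1G15930 had 338 ± 23.6 TPM (SD, n = 3 each). In RPS3a, AT3G04840 had 44.9%, 48.8% and 40.5%, against 19.3%, 17.8% and 17.9% for AT4G34670, a ratio of 2.44. AT4G34670 had a narrow spread (SD 0.845), and its relative share of -0.04 was not called. The RPS4 genes AT5G07090 and AT2G17360 had 30.1%, 36.2% and 21.7% against 16.9%, 16.0% and 15.3%, a ratio of 1.82, and the third, AT5G58420, had 26.4% ± 3.06 (SD, n = 3).

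**Figure D3:**
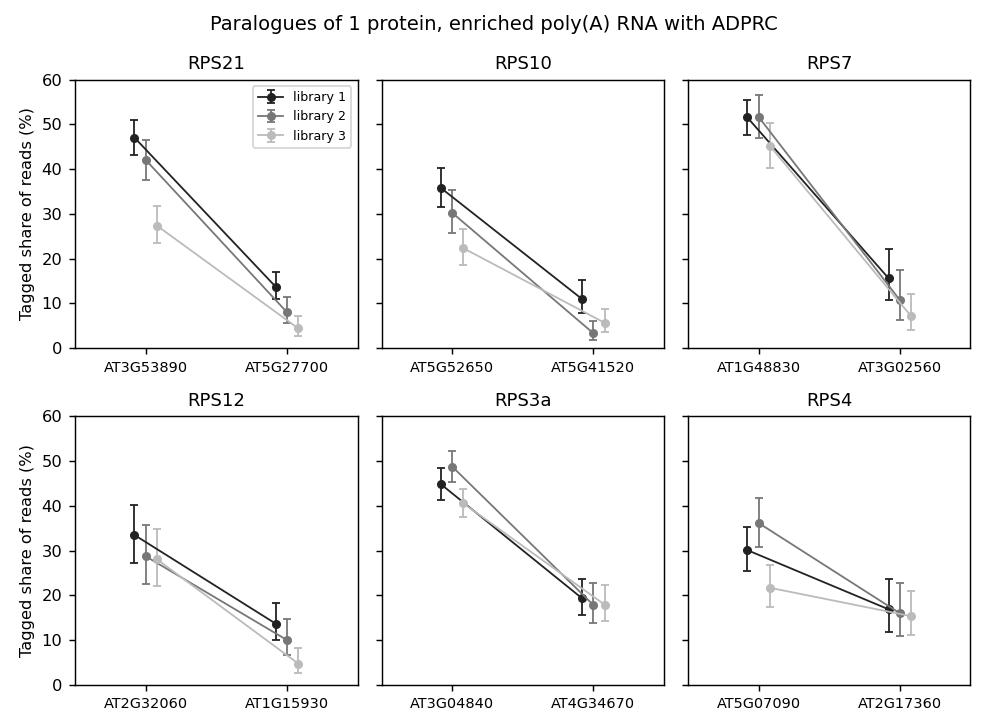
Tagged share (%) of the most and the least tagged paralogue of the 6 proteins whose 3 enriched libraries with ADPRC did not overlap; lines join values of 1 library and bars are 95% Wilson intervals. The more tagged gene is higher in all 3 libraries of each protein, with ratios of mean shares from 1.82 (RPS4) to 4.46 (RPS21).

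By pooled reads, these 6 proteins had the same order in unenriched RNA with ADPRC, a separate set of libraries. The order there rests on few tagged reads, and the intervals were apart for 1 of the 6, RPS21. Summed over the 6 proteins, 34 of 2177 reads (1.56%) of the more tagged genes and 7 of 2327 reads (0.301%) of the less tagged genes carried the tag there. Over all 16 proteins the order was the same in 12 and opposite in 4, namely RPS3, RPS14, RPS18 and RPS19. How often the order is kept over all gene pairs is not at hand. The more tagged gene was the more abundant one, by unenriched reads, in 1 of the 6 proteins (RPS4) and in 7 of the 16. Members were called on both sides of the library's share within 4 proteins, RPS7, RPS10, RPS12 and RPS21.

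The remaining proteins had paralogues with overlapping shares. RPS6, RPS24, RPS3, RPS15a and RPS13 had ratios of mean shares from 1.36 to 1.68, with the same gene higher in all 3 libraries. RPS6, whose phosphorylation follows TOR signalling, had 21.7% ± 5.02 for AT5G10360 and 12.9% ± 6.50 for AT4G31700 (SD, n = 3 each). RPS14, RPS18 and RPS19 had ratios of 1.21, 1.08 and 1.01. Since the libraries themselves differed, the shares were also divided by the library's share, and 10 proteins then had extreme members that did not overlap, among them the 6 above with RPS3, RPS6 and RPS15a. On that scale 19 of the 26 pairs (73.1%) did not overlap, against 69.5% of all pairs of genes. Without replicate 1 of the enriched libraries the plain shares gave 11 such proteins, with 61.5% of the pairs apart against 64.6% of all pairs of genes. Without replicate 3 they gave 12, with 80.8% apart against 77.2%. Without replicate 2, 38.5% of the pairs were apart, against 59.5% of all pairs of genes.

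Unenriched RNA with ADPRC gives a view of the same genes without selection, at far lower counts. Of 51 members at 100 TPM or more, 6 had no tagged read, and the mean share had a median of 0.653%, against 0.457% over all 1328 genes, of which 376 had none. The highest shares were 2.85% ± 1.11 for AT3G04840, 2.74% ± 0.471 for AT5G03850 and 2.42% ± 0.782 for AT3G53890 (SD, n = 3 each), each above the library's 0.625% ± 0.104. RPS13 AT4G00100, known as RPS13A, had 1.92%, 2.21% and 2.13%, from 10 of 471 reads. The limma test called 32 members above the library's share and 0 below it (0 at an unadjusted p under 0.05), but 64.3% of all genes were called above and 4.89% below, and its pseudocount, the value of 1 read, was 1.79% of 100 TPM and so larger than the share tested. The quasi-likelihood test of edgeR on whole reads, which needs no pseudocount, called 2 members above, AT5G18380 and AT5G03850 (edgeR adjusted p = 0.00337 for each), and 0 below, where 3.61% of genes were called above and 3.61% below. At an unadjusted p under 0.05 that test had 5 members above and 1 below.

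Across the 48 members, the share after enrichment followed the pooled unenriched share with Pearson's r of 0.69 and Spearman's rho of 0.70. Against the log2 level in unenriched RNA r was -0.28 and rho -0.33, and against gene length r was -0.23 and rho -0.30. These are descriptions over genes that share libraries, depth and reads, and genes are not independent replicates.

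For some 40S genes the total of tagged and untagged reads also differed between enriched and unenriched RNA. In all reads, enriched against unenriched RNA with ADPRC, 6 of 59 members tested were higher and 14 lower by limma at an adjusted p under 0.05. Over all 18831 genes 2.99% were called higher and 1.96% lower. The median difference was -0.15 over the members and 0.20 over all genes (log2), most of which had lower levels than the members. Among the 8684 genes at a mean of 10 TPM or more of all reads, it was -0.19 over 56 members and 0.08 over all genes. The median of the 40S genes thus lay lower in both settings, by less among the more abundant genes. Scaled to genes read in every library, the counts were 3 higher, AT3G04840, AT1G48830 and AT1G58380, and 15 lower. Over all genes 2.89% were then called higher and 2.54% lower. The calls depended on the unenriched libraries: leaving out replicate 1, 2 or 3 of them left 4, 2 and 2 members higher and 6, 1 and 3 lower. Over all genes those fits called 1.15% to 1.57% higher and 0.629% to 0.866% lower.

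RPS3a AT3G04840 rose most among members called. All its reads were 645, 683 and 737 TPM in enriched libraries with ADPRC, against 132, 174 and 200.1 TPM in unenriched ones. The groups did not overlap, and the difference was 2.04 ± 0.16 (log2, SE, limma adjusted p = 7.99e-05). Enriched libraries without ADPRC had 228, 180.5 and 312 TPM. Its untagged reads were also more frequent after enrichment, at 381 ± 49.6 TPM, than before, at 164 ± 35.1 TPM (SD, n = 3 each).

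RPS7 AT1G48830 had 509.6, 334 and 306 TPM of all reads in enriched libraries with ADPRC, against 145, 179 and 163 TPM in unenriched ones, a difference of 1.20 ± 0.19 (log2, SE, limma adjusted p = 0.00505). Enriched libraries without ADPRC had 133, 115 and 129.7 TPM, below the unenriched level. Untagged reads of AT1G48830 were 192 ± 47.5 TPM enriched and 161 ± 18.3 TPM unenriched, so the ranges overlapped. The other 4 called higher were RPS2 AT1G58380 (1.38), RPS28 AT5G03850 (0.77), RPS10 AT5G52650 (0.72) and RPS21 AT3G53890 (0.71).

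Among the 14 members that fell, RPS14 AT2G36160 fell most. It had 117, 99.96 and 119 TPM of all reads in enriched libraries with ADPRC, against 254, 297 and 286 TPM in unenriched ones, a difference of -1.31 ± 0.15 (log2, SE, limma adjusted p = 0.000854). Its tagged share of 23.4% ± 6.33 (SD, n = 3) was not called against the library's. Enriched libraries without ADPRC had 84.6, 78.7 and 142 TPM, so the low level was present without the tagging enzyme too. The unenriched control library had 248 TPM. Enriched against unenriched RNA without ADPRC was not tested, having 1 unenriched library.

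RPS24 AT3G04920 fell by 0.92, RPSa AT1G72370 by 0.84, RPS20 AT3G45030 by 0.80 and RPS12 AT1G15930 by 0.77 on the log2 scale. The other 9, among them RPS15 AT1G04270, RPS6 AT5G10360, RPS4 AT5G07090, RPS13 AT3G60770, RPS7 AT3G02560, RPS2 AT2G41840 and RPS15a AT1G07770, fell by 0.55 to 0.75. RPS7 and RPS2 thus had 1 gene called higher and 1 called lower, though AT1G58380 of RPS2 had only 27 unenriched reads in all. RPS20 AT5G62300, with 39.0% ± 8.56 tagged, had a difference of 0.43 that was not called.

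**Figure D4:**
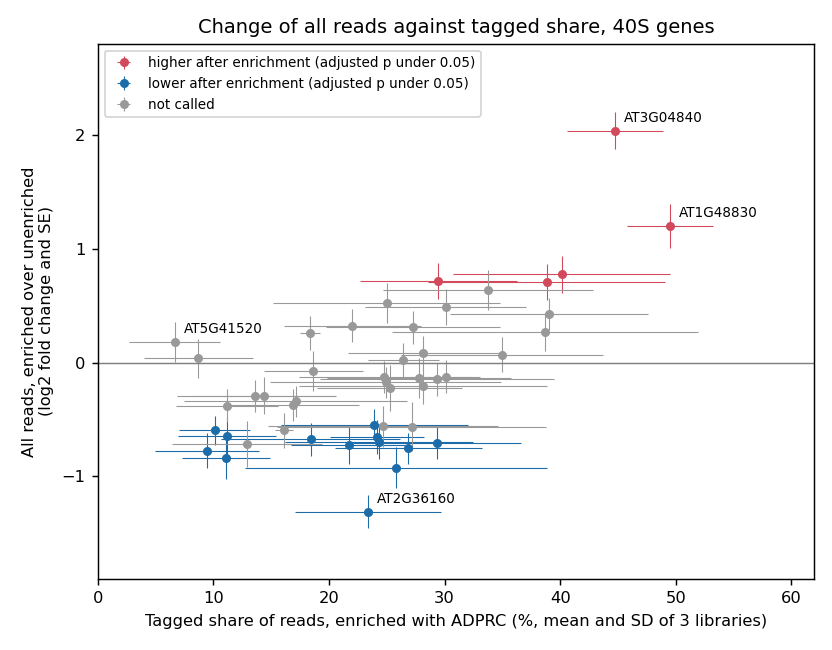
Difference of all reads between enriched and unenriched RNA with ADPRC (log2, with SE) against the tagged share after enrichment (%, mean and SD of 3 libraries) for the 48 40S genes at 100 TPM or more. AT3G04840 and AT1G48830 stand apart at 2.04 and 1.20, AT2G36160 is lowest at -1.31 with a share of 23.4%, and AT5G41520, with the lowest share (6.64%), lies at 0.18.

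The share and the difference of all reads used the same enriched libraries, and across the 48 members they ran together with r of 0.62 and rho of 0.57, given as a description. Of the 5 least tagged members, AT1G72370, AT1G15930 and AT2G41840 fell in all reads by 0.84, 0.77 and 0.60 on the log2 scale, while AT5G41520 and AT5G27700 had differences of 0.18 ± 0.18 and 0.04 ± 0.17 (log2, SE), which did not pass the test.

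The relative share was also compared directly between enriched and unenriched RNA with ADPRC. By limma, 0 of 48 members were higher after enrichment, where 0.349% of 1146 genes were, and 7 were lower, where 31.7% were. The interaction test of edgeR on whole reads, chosen after seeing the data, called 0 members in either direction. At an unadjusted p under 0.05 it had 1 higher and 1 lower, against 1 and 11 by limma. Over all genes edgeR called only 0.0873% higher and 0.0873% lower, so its 0 says little about the members. Limma centred on the median gene also called 0 members, where 2.01% of genes were called higher and 8.64% lower. The calls thus depended on the setting, and the cause was not tested.

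Other genes of the small subunit outside the list, 29 of which were read, include RPS25, RPS27, RPS29, RPS30 and the scaffold protein RACK1. At 100 TPM or more, 17 of them had a median share of 22.6% after enrichment with ADPRC. By limma 6 were called above the library, where 30.9% of all genes were, and 2 below it, where 36.1% were. RPS29 AT3G44010 had the highest, 42.7% ± 13.3, and RACK1 AT1G18080 the lowest, 12.1% ± 3.56 (SD, n = 3 each). In all reads limma called 2 of 28 tested higher after enrichment, RPS30 AT2G19750 by 1.12 and RPS28 AT5G64140 by 0.66 (log2). It called 0 lower (3 at an unadjusted p under 0.05). Over all genes 2.99% were called higher and 1.96% lower. By edgeR 5 were higher and 0 lower, where 4.39% and 3.36% of all genes were. The median difference by limma was 0.20 where the members had -0.15.

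Enriched total RNA was sequenced too shallowly for single genes. With ADPRC, 10 of 111 reads of the 40S genes were tagged (9.01%, interval 4.97% to 15.8%), against 0 of 16 reads without ADPRC (interval up to 19.4%). The whole library had 4.80% tagged with ADPRC. The 10 tagged reads came from 8 genes, with 2 reads each for RPS3a AT3G04840 and RPS15a AT5G59850.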

How the data were processed

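NAD tagSeq was read in 12 libraries of Arabidopsis seedlings. Tagged reads and all reads have a table each. The authors deposited CPM values, reads scaled to all reads of the library with no length correction, which are called TPM per the file headers. Whole reads were recovered from them: 100% of 38774 tagged and 177709 all-read values above 0 were whole multiples of 1 read within 0.01 reads. The sources used here do not give the aligner, build, annotation, use of strand or rule by which reads count as tagged. Of the identifiers, 1 names no gene (1 read) and was left out. A gene missing from the tagged table was taken as 0 there. The reference table (TAIR10.1) matched all 60 members and names 16 by a symbol other than the locus. Assignment of genes to proteins is general knowledge. Replicates differed by more than counting noise (chi-square per gene from 1.20 to 4.76).

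Tests, two-sided, were made with limma 3.58.1 (R 4.3.3; lmFit, then eBayes with a trend) on log2(TPM + pseudocount) over all genes above 0 in at least 3 libraries. As pseudocount served the median, over libraries, of the smallest value above 0 (0.953 TPM with against without ADPRC, 1.23 enriched against unenriched, 0.819 and 1.79 for enriched and unenriched shares). Such differences understate the change of low genes. Shares were tested for genes at 100 TPM or more as log2((tagged + pseudocount)/(all + pseudocount)) minus the log2 share of the library. Adjusted p-values are Benjamini-Hochberg over all genes tested, called under 0.05. Intervals are 95% Wilson, the floor for 0 is 3 reads, and ratios of pooled reads carry exact counting intervals. edgeR 4.0.16 and DESeq2 1.42.0 ran on recovered reads as alternatives, beside another pseudocount, filters, scaling, a replicate block and leaving out each library. The fits were tested on simulated data.

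Same-numbered enriched libraries with and without ADPRC deviated together in all reads (correlations 0.533, 0.559 and 0.438 over 1361 genes) but not in tagged reads (0.00318, 0.0354 and 0.0185), and numbers did not pair enriched with unenriched libraries. Members and lists were chosen with earlier results of these data known. Named members are the 5 highest and 5 lowest shares, the 5 highest tagged levels, those without a tagged read, non-overlapping paralogue extremes and those whose call differed from most members; other members are examples of their protein, chosen after their values were seen. Some members enter the counts over all 60 genes but are not reported here by name.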

Additional observations from a re-analysis of the deposited data

Results flagged for a closer look

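The relative tagged share differed between enriched and unenriched RNA with ADPRC for 7 members by limma, each lower after enrichment. The differences (log2) were -1.70 for RPS13 AT4G00100 (limma adjusted p = 0.00700), -1.66 for RPS12 AT1G15930 (limma adjusted p = 0.0115), -1.48 for RPS10 AT5G41520 (limma adjusted p = 0.0355) and -1.29 for RPS12 AT2G32060 (limma adjusted p = 0.0178). They were -1.27 for RPS28 AT5G03850 (limma adjusted p = 0.0179), -1.25 for RPS3a AT3G04840 (limma adjusted p = 0.0245) and -1.20 for RPS21 AT3G53890 (limma adjusted p = 0.0304). AT4G00100 had 32.8%, 28.2% and 14.0% tagged enriched, against 1.92%, 2.21% and 2.13% unenriched. AT5G41520 had no tagged read in unenriched RNA, so its difference rests on the pseudocount of 1.23 TPM. The pseudocount also weighs on members with few such reads, as AT1G15930 (3 reads, 2.02 TPM) and AT2G32060 (5 reads, 3.09 TPM). With a pseudocount of 10, all 48 members and 97.2% of all genes were called lower. Over all 1146 genes 31.7% were called lower too, and the median difference was -0.59 over members and -0.89 over all genes. Centred on the median gene, or by the interaction test of edgeR on whole reads, which was chosen after seeing the data, 0 of the 7 were called. The cause was not tested.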

How the results depend on the processing

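Unenriched libraries with ADPRC held 196 tagged reads over all members, which limited the comparisons that use them. Scaled to genes read in every library, 2 members were higher and 34 lower with than without ADPRC, 2 higher and 9 lower in tagged reads with enrichment, and 3 higher in all reads. Over all genes, 0.707% were then higher and 93.2% lower with ADPRC, and 0.774% higher and 79.5% lower with enrichment. In all reads 2.89% of genes were higher. Leaving out 1 library at a time, members called were 38 to 57 higher with ADPRC, where without an enriched library with ADPRC only 38 were tested, 46 to 57 higher with enrichment, and in all reads 2 to 7 higher and 1 to 20 lower. Over all genes these fits called 83.9% to 97.2% higher with ADPRC and 82.7% to 95.7% higher with enrichment. In all reads they called 1.15% to 5.71% higher and 0.629% to 3.21% lower. For the enriched share a pseudocount of 10 gave 6 below, where 23.7% of all genes were. Testing genes at a mean of 10 TPM gave 13 above and 4 below, where 11.1% and 27.0% of all genes were. At 500 TPM there were 5 above and 1 below, where 35.0% and 45.0% of all genes were. For the unenriched share there were 51 above with a pseudocount of 10, 2 at 500 TPM, 2 above and 4 below when centred on the median gene, 2 by edgeR, and 19 (without replicate 1) to 34 when leaving out 1 library. Over all genes, 97.1% were above with a pseudocount of 10 and 19.4% at 500 TPM. Centred, 2.33% were above and 13.4% below. By edgeR 3.61% were above, and 47.4% to 69.3% when leaving out 1 library. The change of share with enrichment had 48 members lower with a pseudocount of 10, 1 higher and 17 lower at 10 TPM, 1 lower (AT5G18380) at 500 TPM, 0 lower when centred, 0 by edgeR, and 0 to 1 higher and 4 to 9 lower when leaving out 1 library, with 4 lower without unenriched replicate 1 or 3. Over all genes, 97.2% were lower with a pseudocount of 10, 91.4% at 10 TPM and 9.89% at 500 TPM. Centred, 8.64% were lower, by edgeR 0.0873%, and 13.0% to 36.2% when leaving out 1 library. Called higher were 0.131% at 10 TPM and 0% to 1.57% when leaving out 1 library. Proteins with separated paralogues were 10 at a minimum of 50 TPM, 3 of 3 (RPS3a, RPS10 and RPS21) at 200 TPM, 10 with the share divided by the library's, and 6 to 12 when leaving out 1 library. For the counts at 50 and 200 TPM no share of all gene pairs is at hand, so they have no background to be read against. In the other settings 59.5% to 77.2% of all gene pairs were apart, against 38.5% to 80.8% of the paralogue pairs. The alternatives for paralogues were chosen after seeing the data. The causes of these shifts were not tested.

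With the replicate number as a block, 57 members were higher with ADPRC and 57 higher with enrichment in tagged reads, 6 were higher and 16 lower in all reads, and 0 were higher and 7 lower in the change of share, so the block moved none of these counts by over 1.5 times. Over all genes, the blocked fits called 97.1% and 96.1% higher in tagged reads. They called 3.37% higher and 2.18% lower in all reads, and 0.262% higher and 29.6% lower in the change of share. The direction turned for AT5G18380 in tagged reads with enrichment when scaled to genes read in every library (-0.069), for AT4G34670 in the enriched share with a pseudocount of 10 (0.15), when centred (0.035) and when leaving out 1 library (-0.25 to 0.078), for AT2G17360 with a pseudocount of 10 (0.18), and for AT5G41520 in the change of share by edgeR (7.83), where it had 0 unenriched tagged reads; none of these values was called. Of the other values of named genes, 480 kept their direction and side of the threshold and 91 kept their direction but missed the threshold.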
